A study of Mus musculus with 8 samples.

Results

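Lipid droplets are the organelles in which cells store triglyceride and sterol ester, and the genes described here encode 3 families of proteins that sit on them or help to build them. The set has 10 genes, namely the 5 perilipins Plin1 to Plin5, the 3 CIDE genes Cidea, Cideb and Cidec, and the 2 FIT genes Fitm1 and Fitm2. They were taken by gene symbol from 19938 genes that the platform annotation names with a single symbol. Each of the 10 had exactly 1 transcript cluster (the group of probes that reads 1 transcript), and all 10 were among the 15174 genes bright enough to be tested. Full-thickness skin was taken from E17.5 mouse embryos for RNA, with 4 arrays labelled PpargΔ/Δ, PPARgamma null, and 4 control arrays labelled PPARgamma wildtype. Both groups are of mixed C57BL6/SV129 strain and no treatment is named for either. The labels state neither the deleted part of Pparg nor how or in which cells it was deleted, and they give no litter or sex. Nothing states whether the RNAs of a group come from separate litters, so p-values measure the spread between these RNAs.

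Perilipins coat the droplet surface and control how lipases reach the lipid inside. CIDE proteins gather where droplets touch and let lipid pass from one to the other, which makes large droplets. FIT proteins lie in the membrane of the endoplasmic reticulum and help lipid to bud off as droplets. PPARgamma, the nuclear receptor that drives the formation of fat cells, is known to activate several of these genes in adipocytes. The comparison asks how their transcripts stand in skin labelled PPARgamma null.

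The arrays are alike in scale, with medians of 6.93 to 6.96 on the log2 scale and a correlation of 0.989 to 0.994 between arrays over all transcript clusters. With 4 arrays per group, precision is limited. Pparg itself read 8.98 to 9.19 on the arrays labelled PpargΔ/Δ, against 8.79 to 9.06 on control arrays, so its transcript cluster showed no loss. A cluster that reads bases other than the deleted ones cannot check the genotype, and directions are given for "labelled-null" arrays, meaning those labelled PpargΔ/Δ. Xist, a transcript of female cells, read 12.10 to 12.27 on labelled-null arrays 3 and 4 and control arrays 1 and 4. On the other arrays of both groups it read 4.86 to 5.39. On the first principal component labelled-null array 4 lay apart at -21.7 and control array 1 came next at -8.62, with the other arrays between -3.12 and 9.02. Across the series 18 of 15174 genes, 0.119%, passed an adjusted p of 0.05 in limma (Benjamini-Hochberg), 17 lower and 1 higher.

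Of the 10 genes, 0 passed that threshold. At an unadjusted limma p under 0.05 there were 5 (3 without control array 1, 3 or 4), against 3.61% of all genes tested. Of the 5, Plin1, Plin2, Cidec and Fitm2 were lower (2.1% of all genes tested) and Cidea was higher (1.51%). The groups did not overlap for 4 of the 10, against 2.45% of all genes tested, with Plin1, Plin2 and Fitm2 lower on all labelled-null arrays (1.67%) and Cidea higher on all of them (0.784%). The remaining 6 genes had groups that overlapped. The median difference over the 10 genes was -0.09 on the log2 scale, against a median of 0.00 over all genes tested, and 7 of the 10 lay below control, against 50.3% of all genes.

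**Figure D1:**
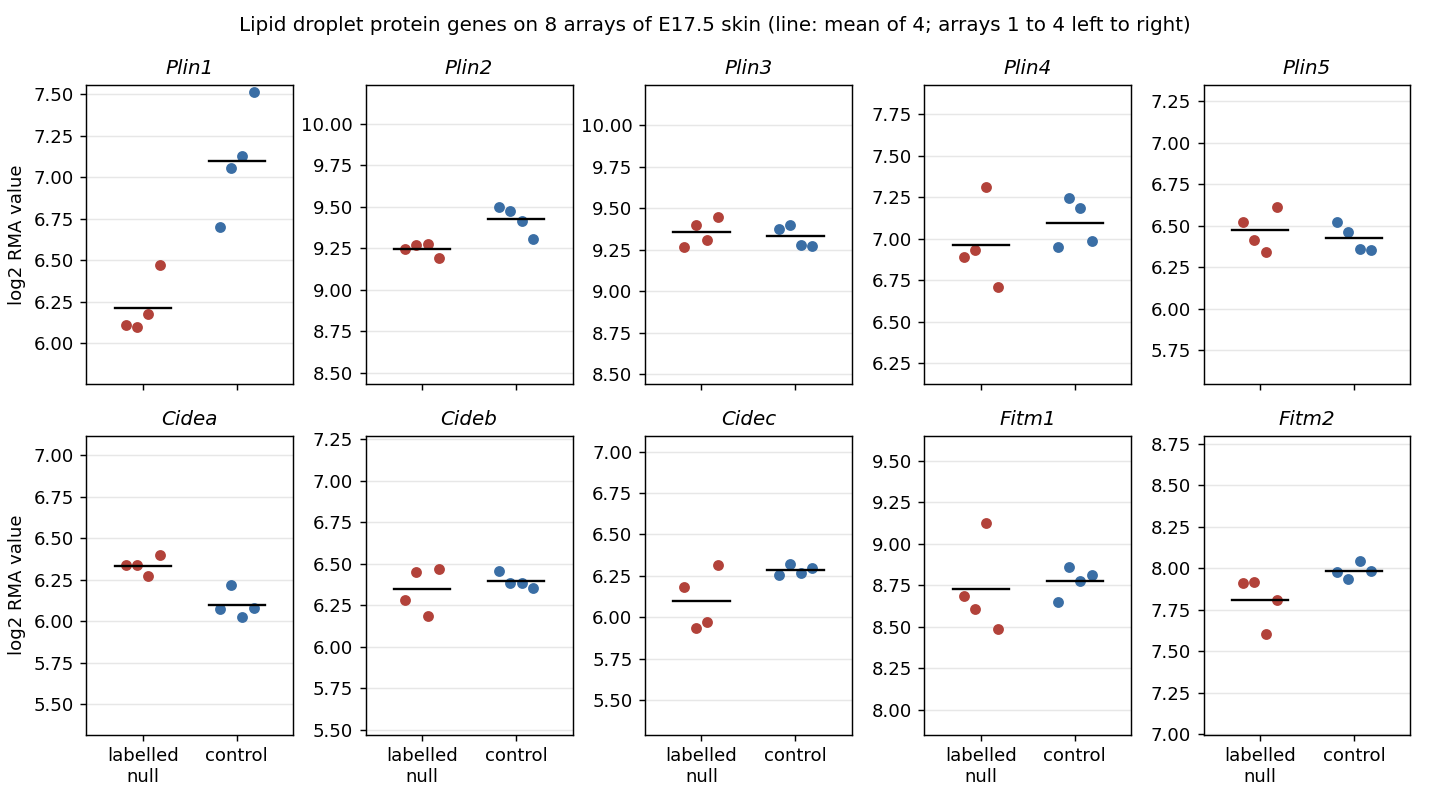
Log2 values of the 10 genes on each array, with labelled-null arrays left of control arrays; points run from array 1 to array 4, lines are means of 4 arrays and every panel spans the same range of log2 units. Plin1 shows the widest separation (6.10 to 6.47 on labelled-null arrays, against 6.70 to 7.51 on control arrays), and Cidea lies higher on all labelled-null arrays.

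The stretches around the transcription start of the 3 genes that lay lower on every labelled-null array are shown because PPARgamma, paired with RXR, is known to bind repeats of a short half-site. They are RefSeq sequences of GRCm38.p6, 5′ to 3′ along the gene, with 250 bases before and 50 after the start, and entries existed for 9 of the 10 genes in 11 windows. The letters searched, on both strands, were the half-site AGGTCA and the direct repeat AGGTCANAGGTCA, which contains it. Capitals mark matches to the half-site and to the repeat with up to 2 mismatches.
Plin1, chr7:79732727-79733026, minus strand: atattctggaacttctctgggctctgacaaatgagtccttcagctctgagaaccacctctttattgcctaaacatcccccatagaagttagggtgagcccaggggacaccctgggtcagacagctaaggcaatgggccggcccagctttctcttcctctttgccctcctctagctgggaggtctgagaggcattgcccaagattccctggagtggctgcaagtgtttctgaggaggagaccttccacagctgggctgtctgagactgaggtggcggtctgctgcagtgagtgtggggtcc
Plin2, chr4:86670010-86670309, minus strand: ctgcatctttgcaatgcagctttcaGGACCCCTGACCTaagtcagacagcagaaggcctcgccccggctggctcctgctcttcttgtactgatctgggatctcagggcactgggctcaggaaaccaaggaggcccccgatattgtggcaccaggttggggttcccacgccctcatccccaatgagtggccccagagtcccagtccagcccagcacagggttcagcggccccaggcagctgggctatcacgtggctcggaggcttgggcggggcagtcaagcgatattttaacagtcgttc
Fitm2, chr2:163472580-163472879, minus strand: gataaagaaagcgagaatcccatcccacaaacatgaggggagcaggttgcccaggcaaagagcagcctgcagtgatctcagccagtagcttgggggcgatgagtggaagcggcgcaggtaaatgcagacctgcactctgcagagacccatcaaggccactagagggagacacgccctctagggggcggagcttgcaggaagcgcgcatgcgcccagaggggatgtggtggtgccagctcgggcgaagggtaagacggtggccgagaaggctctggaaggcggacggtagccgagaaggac
The half-site was found in the windows of Plin2 and Plin5, or 3 of the 11 windows, and 16.3% of all 32851 windows hold it. The exact repeat was in 0 of the 11 windows and in 0.0396% of all windows. With up to 2 mismatches it was in the Plin2 window alone of the 11, on the strand opposite to the gene and beginning 225 bases before the start, where 3.86% of all windows hold such a stretch. A match in letters is a description of the window, and its absence from the windows of Plin1 and Fitm2 speaks only of these 300 bases.

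Among the perilipins, Plin1 differed most. It encodes perilipin 1, the coat of the adipocyte droplet that holds the lipase cofactor Abhd5 until the cell is stimulated. Plin1 read 6.11, 6.10, 6.18 and 6.47 on labelled-null arrays 1 to 4, against 6.70, 7.06, 7.13 and 7.51 on control arrays 1 to 4. All 4 labelled-null values lay below all control values, with the 2 groups closest at labelled-null array 4 and control array 1, the arrays that stand apart on the first principal component. The means were 6.22 ± 0.18 on labelled-null arrays and 7.10 ± 0.33 on control arrays (SD, n = 4 each), a difference of -0.88 on the log2 scale or 1.85-fold lower, with a 95% confidence interval of -1.23 to -0.54. The interval is for this gene alone. Over all genes the limma adjusted p was 0.128, and Plin1 ranked 25 of 15174 by p. By exact two-sided permutation p was 0.0286, which 4 against 4 arrays cannot go below. Of the 8 fits with 1 array left out, the one without control array 1 alone gave a call, with a difference of -1.02 (limma adjusted p = 0.0426). The other 7 gave adjusted p-values of 0.0959 (without labelled-null array 4) to 0.479 (without control array 3), and the difference nearest 0 was -0.75, without control array 4. With control array 1 and labelled-null array 4 both left out the value was -1.10 (limma adjusted p = 0.0267).

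White adipocyte markers lay lower alongside Plin1. Of 14 listed genes 11 were read here and 9 were tested, 8 of them below control, and 5 passed in limma, all lower: the fatty acid transporter Cd36, the fatty acid binding protein Fabp4, lipoprotein lipase Lpl, the glycerol channel Aqp7 and Trarg1, which takes part in glucose transporter trafficking. That count was 1 without labelled-null array 1 or 2 or control array 2 or 4, and 2 without control array 3. The mean of the 9 was 7.36 to 7.68 on labelled-null arrays, against 7.90 to 8.15 on control arrays. Its lowest control value was on control array 1, as for Plin1, but labelled-null array 4, highest of its group for Plin1, was lowest for this mean. The single markers were split on that array. Fabp4, Lpl, Aqp7, Gpd1 and Slc2a4 were lowest of their group there, Trarg1, Retn and Pck1 were highest, as Plin1 was, and Cd36 was neither. The tested markers that did not pass were Retn (-0.38) without overlap, and Gpd1 (-0.58), Slc2a4 (-0.04) and Pck1 (0.05) with overlap. Adiponectin and leptin (Adipoq and Lep) lay under the brightness filter and were not tested. Adipoq read 4.39 to 4.90 on labelled-null arrays, against 5.02 to 5.69 on control arrays. Lep read 4.46 to 4.74 on labelled-null arrays, against 4.62 to 4.77 on control arrays. The part of adipocyte content in the Plin1 result was not tested. In bulk skin RNA fewer adipocytes and less Plin1 transcript per adipocyte cannot be told apart.

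Plin2 showed a smaller difference. It encodes the perilipin found on droplets of most cell types, which is stable only when lipid is stored. Plin2 read 9.25, 9.27, 9.27 and 9.19 on labelled-null arrays 1 to 4, against 9.50, 9.48, 9.41 and 9.31 on control arrays 1 to 4. The groups did not overlap, and the gap between them, from 9.27 on labelled-null array 3 to 9.31 on control array 4, was narrow beside the control SD of 0.09. The difference was -0.18 (95% confidence interval -0.30 to -0.06, limma adjusted p = 0.9995, exact two-sided permutation p = 0.0286). Within the control group Plin2 ran in the opposite order to Plin1, highest on control array 1 and lowest on control array 4. Macrophages are also known to carry Plin2, and of 7 tested macrophage markers 0 passed in limma, with 0 at an unadjusted p under 0.05, and differences ran from -0.12 to 0.01. The part of macrophages in the Plin2 values was not tested.

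The other perilipins gave no separation between the groups. Plin3, the perilipin of small nascent droplets that is made in most tissues, read 9.27 to 9.45 on labelled-null arrays, against 9.27 to 9.40 on control arrays. Its difference was 0.02, with a 95% confidence interval of -0.11 to 0.15, and it was -0.0064 without labelled-null array 4. Plin5, the perilipin of oxidative tissues that links droplets to mitochondria, read 6.34 to 6.61 on labelled-null arrays, against 6.35 to 6.52 on control arrays. Its difference was 0.05 (95% confidence interval -0.11 to 0.21). Plin4, which coats newly forming droplets in adipocytes and is also made in muscle, read 6.89, 6.93, 7.31 and 6.71 on labelled-null arrays 1 to 4, against 6.95, 7.25, 7.18 and 6.99 on control arrays 1 to 4. Its highest and its lowest value were both on labelled-null arrays, and the difference was -0.13 (95% confidence interval -0.40 to 0.14), -0.25 without labelled-null array 3 and -0.05 without labelled-null array 4. Plin4 and Plin5 are next to each other on chromosome 17, and Plin3 lies on the same chromosome. The intervals of these 3 genes and of Plin2 went no lower than -0.40, short of the bound of -0.54 at which the Plin1 interval ended; the difference between genes was not itself tested.

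**Figure D2:**
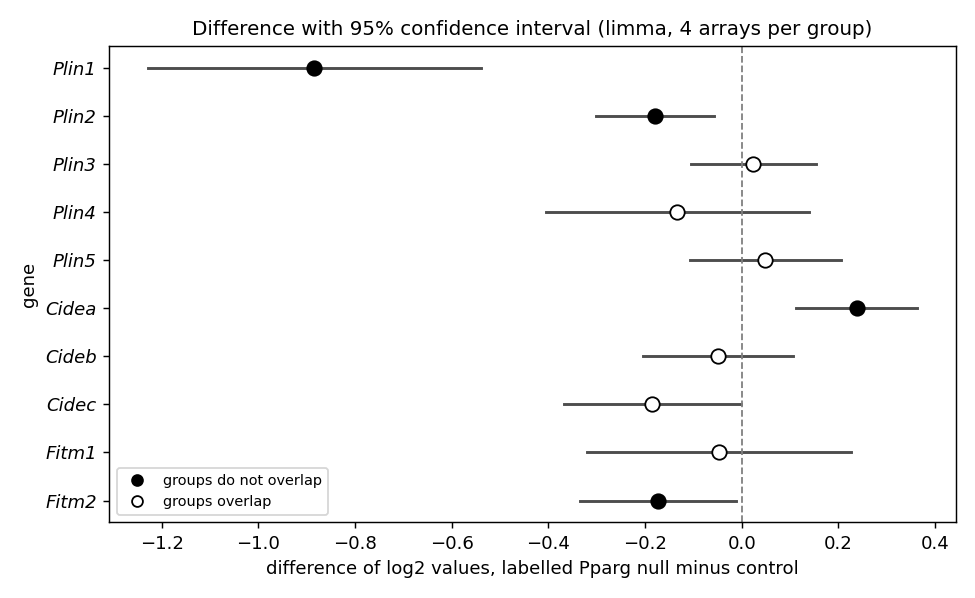
Difference of log2 values (labelled Pparg null minus control) of each gene with its 95% confidence interval from limma, 4 arrays per group; filled points mark genes whose groups do not overlap. Plin1 lies at -0.88, Cidea at 0.24, and the other 8 genes between -0.18 and 0.05.

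Among the CIDE genes, Cidea lay higher on the labelled-null arrays. Cidea is known as a gene of brown adipocytes and, in mouse skin, of sebaceous glands, where it promotes lipid storage. It read 6.34, 6.34, 6.27 and 6.40 on labelled-null arrays 1 to 4, against 6.07, 6.22, 6.02 and 6.08 on control arrays 1 to 4. The lowest labelled-null value, on array 3, was next to the highest control value, on array 2, and the groups did not overlap. Means were 6.34 ± 0.05 on labelled-null arrays and 6.10 ± 0.08 on control arrays (SD, n = 4 each), a difference of 0.24 or 1.18-fold (95% confidence interval 0.11 to 0.36). The limma adjusted p was 0.582 and the exact two-sided permutation p 0.0286. Without any 1 array the difference stayed between 0.21 and 0.28, and its adjusted p between 0.396 and 0.9999. Over all arrays the Cidea mean stood at the 38.9th percentile of transcript clusters, not far above the 30th percentile used as brightness filter (5.62 to 5.67 by array).

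Markers of both cell types known for Cidea were read beside it. Of 8 brown adipocyte markers 7 were tested, 0 passed in limma and 0 had an unadjusted p under 0.05, and their mean was 7.39 to 7.61 on labelled-null arrays, against 7.44 to 7.54 on control arrays. This mean ordered the labelled-null arrays as the mean of the skeletal muscle markers did, highest on array 3 and lowest on array 4. Among control arrays both means were highest on array 2, but their lowest arrays differed. The part of muscle in the brown adipocyte mean was not tested. Ucp1, the uncoupling protein that defines brown fat, lay under the brightness filter, at 5.21 to 5.54 on labelled-null arrays and 5.42 to 5.49 on control arrays. Of 8 sebocyte markers 3 were tested and 0 passed in limma. One of them, the sebaceous melanocortin receptor Mc5r, had an unadjusted p under 0.05 and lay the opposite way to Cidea, at 5.67 to 6.002 on labelled-null arrays, against 6.17 to 6.65 on control arrays. Its groups did not overlap and its difference was -0.48 (limma adjusted p = 0.545). Mc5r stood at the 37.0th percentile of transcript clusters, dimmer than Cidea and near the brightness filter. Of the sebocyte markers under the brightness filter and not tested, the lipid elongase Elovl3 was lower without overlap. It read 4.41 to 4.75 on labelled-null arrays and 4.90 to 5.35 on control arrays. The others under the filter, Awat2 (-0.14), Scd3 (-0.04) and Dgat2l6 (0.02), had groups that overlapped. The wax synthase Awat1 differed by -0.09, with groups that overlapped. The fatty acyl-CoA reductase Far2 had 10.58 on labelled-null array 4, where arrays 1 to 3 of that group had 7.91 to 8.37, against 7.68 to 8.98 on control arrays. The mean of Mc5r, Awat1 and Far2 was therefore 7.38 on labelled-null array 4 through Far2 alone, and 6.45 to 6.63 on the other labelled-null arrays, against 6.54 to 7.01 on control arrays. Labelled-null array 4 was highest of its group both for Cidea and for the suprabasal epidermis list (12.42, against 12.05 to 12.15 on the other labelled-null arrays and 11.96 to 12.21 on control arrays). Control array 2 went the other way, highest of its group for Cidea and lowest of its group for that list, at 11.96. The part of these cell types in the Cidea values was not tested.

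Cidec, which enlarges the single droplet of white adipocytes and is partnered there by Plin1, read 6.18, 5.94, 5.97 and 6.31 on labelled-null arrays 1 to 4, against 6.26, 6.32, 6.27 and 6.30 on control arrays 1 to 4. Labelled-null arrays 1 to 3 lay below every control array, while array 4 lay within the control values. The difference was -0.18 with a 95% confidence interval of -0.37 to -0.0015 (limma adjusted p = 0.9995, exact two-sided permutation p = 0.114). Without labelled-null array 4 the groups did not overlap and the difference was -0.26, and without control array 1 as well it stayed at -0.26 (limma adjusted p = 0.88). The control values of Cidec varied little (SD 0.03, n = 4), and the labelled-null values more (SD 0.18, n = 4). Cidec had the lowest brightness of the 10 genes relative to all transcript clusters, at the 38.5th percentile.

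Cideb, which is known for lipoprotein assembly in liver and gut, read 6.18 to 6.47 on labelled-null arrays, against 6.35 to 6.46 on control arrays. The labelled-null values enclosed those of control. The difference was -0.05 (95% confidence interval -0.21 to 0.11), and without labelled-null array 3 it was 0.0050.

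Of the FIT genes, Fitm2, which is made in most tissues including fat, lay lower on the labelled-null arrays. It read 7.91, 7.92, 7.61 and 7.81 on labelled-null arrays 1 to 4, against 7.98, 7.94, 8.05 and 7.98 on control arrays 1 to 4. The groups did not overlap, though labelled-null array 2, at 7.92, stood next to control array 2, at 7.94. The difference was -0.17 (95% confidence interval -0.34 to -0.01, limma adjusted p = 0.9995, exact two-sided permutation p = 0.0286), and it was -0.11 without labelled-null array 3.

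Fitm1, the family member of skeletal and heart muscle, read 8.69, 8.61, 9.12 and 8.49 on labelled-null arrays 1 to 4, against 8.65, 8.86, 8.77 and 8.81 on control arrays 1 to 4. The labelled-null values enclosed the control values, with array 3 highest and array 4 lowest of all 8. The difference was -0.05 (95% confidence interval -0.32 to 0.23), -0.18 without labelled-null array 3 and 0.033 without labelled-null array 4. Plin4 was likewise highest of all on labelled-null array 3 and lowest of all on labelled-null array 4. The mean of 10 skeletal muscle markers followed the same arrays, at 11.20 on labelled-null array 3 and 10.69 on labelled-null array 4, against 10.79 to 11.09 on the other labelled-null arrays and 10.81 to 11.07 on control arrays. None of the 10 muscle markers passed in limma, with 0 at an unadjusted p under 0.05. The part of muscle in the Fitm1 and Plin4 values was not tested.

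**Figure D3:**
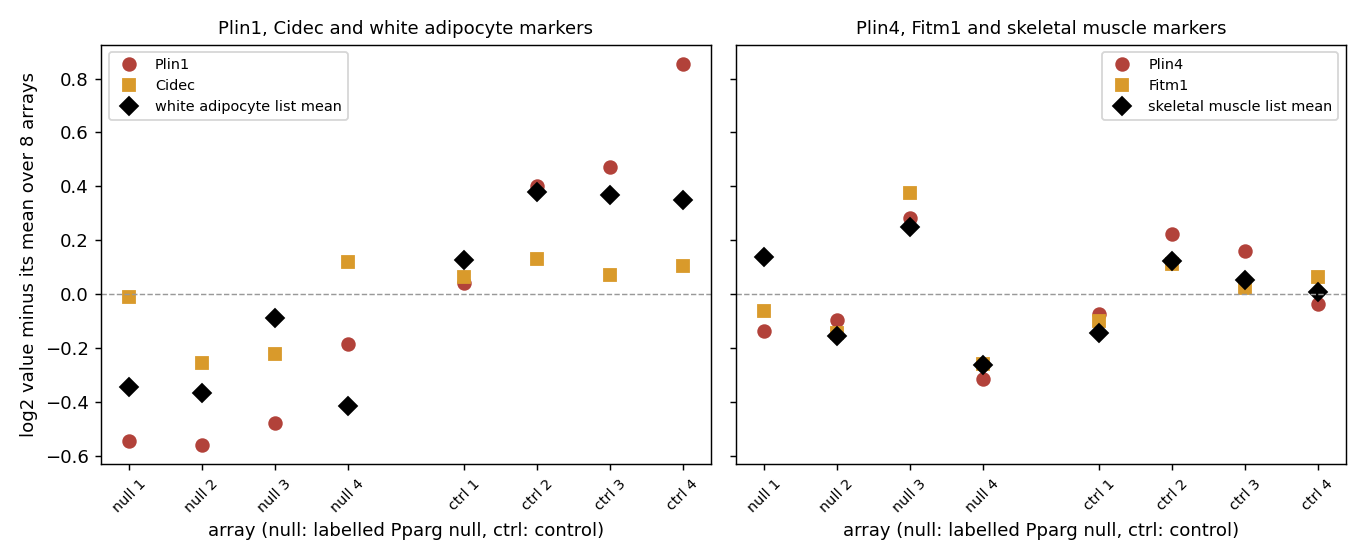
Log2 values relative to their mean over 8 arrays, for Plin1, Cidec and the mean of 9 tested white adipocyte markers (left) and for Plin4, Fitm1 and the mean of 10 skeletal muscle markers (right), by array, labelled-null arrays left of control arrays. On the right all 3 are highest on labelled-null array 3 and lowest on labelled-null array 4. On the left labelled-null array 4 is highest of its group for Plin1 and Cidec and lowest for the mean of the adipocyte markers. The single adipocyte markers are split on that array.

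Labelled-null array 4 held the highest or the lowest value of its group for 9 of the 10 genes, and for 66.3% of all genes tested. Among the 10 it was highest for Plin1, Plin3, Plin5, Cidea, Cideb and Cidec and lowest for Plin2, Plin4 and Fitm1. For the other 7 arrays the count was between 1 and 7 of the 10, and the share of all genes tested between 38% and 55%.

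**Figure D4:**
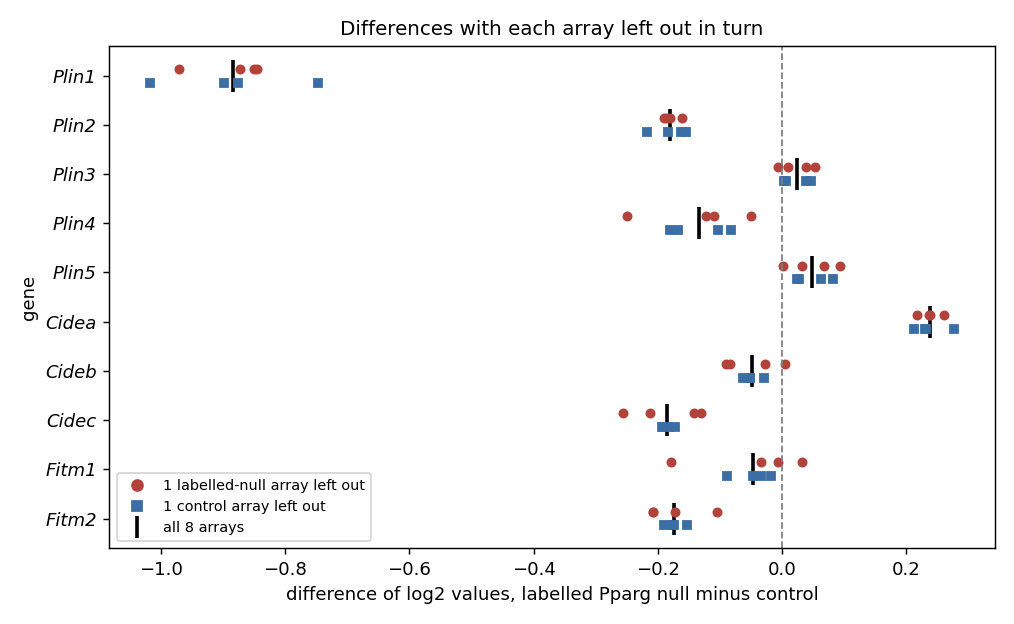
Difference of log2 values (labelled Pparg null minus control) with all 8 arrays (vertical mark) and with each array left out in turn (circles above, a labelled-null array left out; squares below, a control array). Plin1 ranges from -1.02 to -0.75 and Cidea from 0.21 to 0.28; Plin3, Cideb and Fitm1 reach the other side of 0.

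Other genes of droplet biology were read in 3 lists. Over the lists 31 genes were tested, 18 below and 13 above control, with a median difference of -0.01, and 0 passed in limma. An unadjusted limma p under 0.05 was seen for 2 of the 31, against 3.61% of all genes tested. Groups did not overlap for 1 of the 31, lower, against 2.45% of all genes tested in either direction and 1.67% lower. In the list of droplet assembly and lipid synthesis, 0 of 9 tested genes passed, with 0 at an unadjusted p under 0.05, and differences ran from -0.10 to 0.03. Its members with the smallest p were Agpat2, an acyltransferase of triglyceride synthesis (-0.10), Dgat1, which makes triglyceride (-0.07), and Bscl2, or seipin, which shapes droplet budding (-0.09). In the list of 14 tested other droplet-associated proteins, 0 passed, with 0 at an unadjusted p under 0.05, and differences ran from -0.09 to 0.09. Cavin1, a caveolar coat protein abundant in adipocytes, differed by -0.09, the ubiquitin adaptor Aup1 by -0.06 and the oxidoreductase Aifm2 by 0.09.

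The lipases that act on the droplet, and their regulators, spread furthest of the 3 lists. Of 8 tested genes 0 passed, 5 lay below and 3 above control, and the median difference was -0.08. Mgll, the monoglyceride lipase, averaged 7.95 ± 0.13 on labelled-null arrays and 8.25 ± 0.10 on control arrays (SD, n = 4 each), with groups that did not overlap and a difference of -0.30 (limma adjusted p = 0.694). Pnpla3, a droplet enzyme with a variant known from fatty liver in humans, averaged 8.04 ± 0.14 on labelled-null arrays and 7.77 ± 0.19 on control arrays (SD, n = 4 each), a difference of 0.27 with groups that overlapped at control array 1 (limma adjusted p = 0.9995). Lipe, the hormone-sensitive lipase that works on droplets coated by perilipin 1, differed by -0.14 (limma adjusted p = 0.9995).

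**Figure D5:**
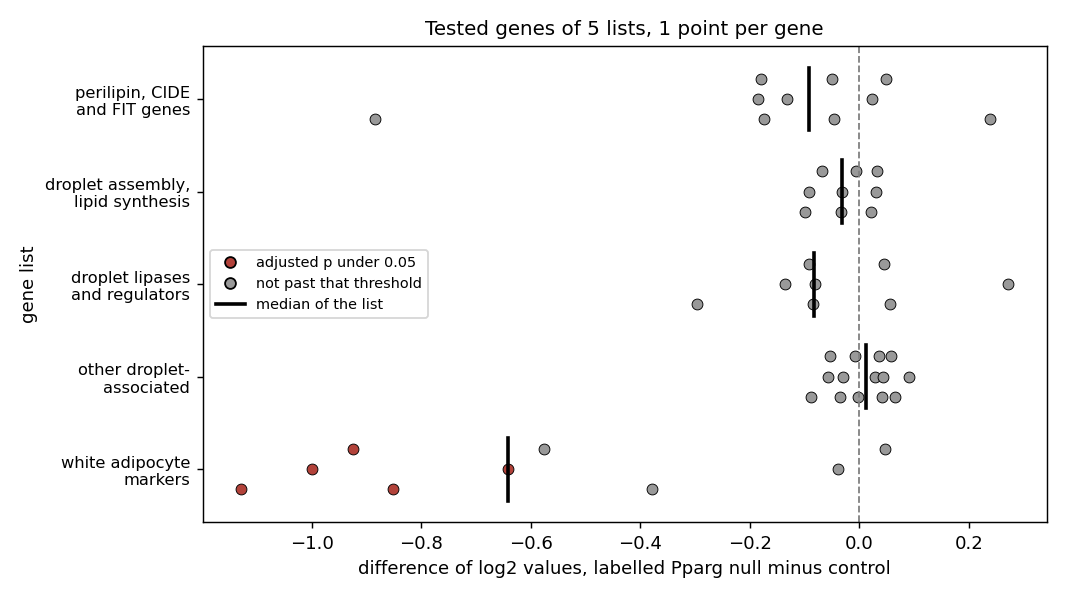
Difference of log2 values (labelled Pparg null minus control) for each tested gene of 5 lists, 1 point per gene; vertical marks are list medians. The 5 white adipocyte markers past the threshold lie between -1.13 and -0.64, and the other tested markers of that list between -0.58 and 0.05. Plin1 lies at -0.88, and the 31 other droplet genes between -0.30 and 0.27.

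Genes whose values ran most like those of Plin1 and Cidea were ranked by Pearson correlation over the 8 arrays, which share the genotype contrast, so the values are a description. For Plin1 these were Rexo1 (r = 0.99, Spearman 0.93), Enpep (0.97, 0.90), Tmem189 (0.96, 0.90), Rabep2 (0.95, 0.90) and Grwd1 (0.95, 0.95), chosen from 15174 genes. Enpep, an aminopeptidase that cleaves angiotensin, differed by -0.62 (limma adjusted p = 0.0576). The other 4 differed by only -0.12 to -0.07, as a correlation takes no account of the size of a difference. Over deviations from the group means, r with Plin1 ran from 0.83 (Enpep) to 0.97 (Rexo1). For Cidea they were Enpp3 (r = 0.94, Spearman 0.90), Mir138-1 (0.92, 0.89), Cabcoco1 (0.92, 0.90), Igf2r (0.92, 0.90) and Ms4a4d (0.90, 0.79). Over deviations from the group means, r with Cidea ran from 0.30 (Ms4a4d) to 0.92 (Cabcoco1). Ms4a4d was the gene that passed upward in the whole series, at 0.47 (limma adjusted p = 0.0194). Without 1 array 1 to 3 of the 5 genes nearest to Plin1 and 0 to 3 of the 5 nearest to Cidea were again among the nearest 5.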

How the data were processed

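Total RNA of 8 skin samples (100 ng each) was amplified, labelled with biotin and hybridised to 1 single-colour Affymetrix array per sample, per the labels' protocols. The authors deposited log2 values from RMA (Affymetrix Expression Console), as the submitters' processing notes list it; the sources used here name no version or annotation build. RMA equalizes the arrays' distributions, so a shift common to all transcripts cannot be seen, and it summarizes the probes of a transcript cluster, so single exons cannot be read.

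The table held 35556 transcript clusters, of which 21789 have 1 gene symbol, 1621 have several and 12146 have none listed; 21698 symbols were updated through the gene ID in a RefSeq table (GRCm38.p6) and 91 kept. Testing required a value above each array's 30th percentile on 4 or more arrays, and of several clusters a gene was read at the one with the highest mean. Differences (labelled-null minus control) come from a fit with no covariate in limma 3.58.1 (R 4.3.3; lmFit, eBayes), two-sided, with Benjamini-Hochberg adjustment over all 15174 genes and 95% intervals per gene; single genes were also tested by exact permutation over all 70 assignments. The limma step was tested on simulated data with independent noise for each gene and no array that stands apart. The real arrays differ in this, so the simulation does not bear on calls that depend on a single array. The members, lists and tests were chosen with earlier results of these data known. Named by rule are the 10 genes, Pparg, and the 5 genes most like each of Plin1 and Cidea without predicted genes. From each list of droplet genes and of cell type markers, the rule named the genes past the threshold and up to 3 tested genes with the smallest p. Those from the droplet, white adipocyte and sebocyte lists are described by name here, and those from the other marker lists are not. Adipoq, Lep, Retn, Gpd1, Slc2a4, Pck1, Ucp1, Elovl3, Awat2, Scd3 and Dgat2l6 were added after their values were seen. The replicate numbers were not treated as a pairing, and nothing states whether they mark one. Deviations of arrays with the same number correlated at r = -0.31, 0.20, 0.05 and -0.03, which cannot settle it. Ldaf1, Tmt1a, Tmt1b and Spart were read under the annotation's older symbols.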

Additional observations from a re-analysis of the deposited data

Results flagged for a closer look

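In groups of 4 arrays, a gene was listed when 1 array lay far from the rest of its group, that is when its gap to the nearest other array, as a share of the group's range, exceeded the critical value of Dixon's test at 95%. The genes examined were the 10 genes, Pparg, those most like Plin1 and Cidea, and those named by rule from the droplet, white adipocyte and sebocyte lists. Of their 76 groups of values 3 met this, where chance gives about 1 in 20. None of the 10 droplet protein genes was among them. Agpat2 read 8.16 on labelled-null array 4, against 7.995 to 8.022 on the other labelled-null arrays. Pnpla3 read 8.05 on control array 1, against 7.65 to 7.72 on the other control arrays. Cabcoco1, one of the genes most like Cidea, read 5.76 on control array 2, against 5.43 to 5.48 on the other control arrays.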

How the results depend on the processing

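The count of 0 droplet protein genes past the threshold became 1 (Plin1) with array weights and without both control array 1 and labelled-null array 4, and it was 0 to 1 without 1 array (1 without control array 1); the cause was not tested. The count of these 10 genes at an unadjusted p under 0.05 was 2 with the 50th percentile filter, which leaves Plin1, Plin5 and the CIDE genes untested, 3 with the replicate block, 3 without those 2 arrays, and 3 to 5 without 1 array. The count of these genes whose groups do not overlap was 2 with the 50th percentile filter and 4 to 5 without 1 array. Over all genes, the 18 past the threshold became 11 with the Xist value as a covariate, 1 with every cluster on its own, 1 with the replicate block and 3 to 15 without 1 array; white adipocyte markers past it became 3, 1, 1 and 1 to 4, and the 31 other droplet genes stayed at 0 in every alternative. With the replicate block Plin1 had a limma adjusted p of 0.06, and the block changed the call of none of the 10 genes. Plin3, Cideb and Fitm1 changed sign without 1 labelled-null array, with ranges of -0.0064 to 0.053, -0.090 to 0.0050 and -0.18 to 0.033 when 1 array was left out, and the other 7 kept their direction in every alternative that tested them. The sebocyte markers Awat1 and Far2 changed sign too, with ranges of -0.15 to 0.0027 and -0.29 to 0.60 when 1 array was left out, and Far2 was at -0.085 without both control array 1 and labelled-null array 4. Precision is limited by 4 arrays per group, and Cidea and Cidec lay near the brightness filter. Of the other named genes that were tested, Mc5r, Retn, Enpep, Pck1, Awat1 and Cabcoco1 were dimmer still.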
